A study of Mus musculus with 10 samples.

Results

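Collagen genes other than those of collagen VI were described in brown preadipocyte cultures taken through adipogenesis. The members are all gene names of the form ColNaN in the deposited tables, with the collagen VI names left out, and they numbered 37 of 22835 names. They fall into 11 fibrillar collagens, 8 collagens of the basement membrane (collagen IV chains with Col15a1 and Col18a1) and 18 others. Where a name had several transcripts, the row with the highest mean level was used, which concerned 4 members (Col18a1, Col4a5, Col2a1 and Col25a1). Of the 37 members, 22 reached 1 RPKM (reads per kilobase of transcript, scaled to sequencing depth) in at least 1 library.

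MLL3 and MLL4 are enzymes that methylate lysine 4 of histone H3 at enhancers. The study asked whether H3.3K4M, a histone H3.3 whose lysine 4 is replaced by methionine, targets them when fat cells form. Cells came from interscapular brown fat of newborn mice and were made immortal with SV40 large T antigen, and all 4 groups carry CreER, a recombinase switched on by 4-hydroxytamoxifen (4OHT). The LSL-K4M 4OHT group (genotype LSL-K4M;CreER) received 4OHT, which by the lox-stop-lox design of the name releases H3.3K4M, and the LSL-K4M mock group did not. The Mll3/4SET 4OHT group (genotype Mll3f/f;Mll4SETf/f;CreER) received 4OHT, which deletes the floxed parts of Mll3 and of the catalytic SET domain of Mll4, and the Mll3/4SET mock group did not. All cultures were induced with insulin, T3, IBMX, dexamethasone and indomethacin. The stage label and the headers of the deposited tables give day 7 for every RNA library, while both libraries treated with 4OHT are titled day 0. If the titles were right, each value of 4OHT over mock would set day 0 against day 7. Which promoter drives H3.3K4M or CreER, and whether a line is 1 clone, the labels do not say.

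Collagens are the main fibre-forming proteins of the extracellular matrix, and each molecule is a trimer of chains wound into a helix. Fibrillar collagens assemble into cable-like fibrils, with collagen I as the bulk of most connective tissue and collagens III and V built into the same fibrils. Collagen IV forms a sheet-like network in the basement membrane, the thin layer that surrounds each fat cell, and collagens XV and XVIII lie where that layer meets the tissue. Preadipocytes have a fibrous matrix of the fibroblast kind, and maturing adipocytes are known to deposit more basement membrane.

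Each group was 1 library, so no difference could be set against replicates, and p-values are not given. Reads summed over 1 row per name were 16719658 in LSL-K4M 4OHT, 15209607 in LSL-K4M mock, 15350730 in Mll3/4SET 4OHT and 15420521 in Mll3/4SET mock. Genes were called higher or lower at a 2-fold difference on the log2(RPKM + 1) scale, a scale that shrinks differences of weakly expressed genes, among names that reached 1 RPKM in at least 1 library of the line. Ratios given as folds are ratios of RPKM with exact 95% intervals in brackets, which cover counting error and nothing else, because reads without molecular identifiers are not independent molecules. The 2 tables were normalised separately, so differences were taken within a line, and levels set across lines are descriptive. The median log2 difference of all measured names was 0.10 for LSL-K4M and 0.12 for Mll3/4SET. With TMM scaling these medians were -0.01 and -0.01, so small positive differences below include this offset.

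Whole-transcript levels do not resolve the floxed exons, and H3.3K4M cannot be told apart from native H3.3 in them. Mll3 was at 5.46 RPKM in Mll3/4SET 4OHT and 7.48 in Mll3/4SET mock, and Mll2, the symbol of the tables for the gene of MLL4, at 12.2 RPKM in Mll3/4SET 4OHT and 13.6 in Mll3/4SET mock. The adipocyte label was met in the mock libraries and less so with 4OHT. The summed level of 8 adipocyte markers was 1425 RPKM in LSL-K4M 4OHT against 5687 in LSL-K4M mock, and 39.4 RPKM in Mll3/4SET 4OHT against 6112 in Mll3/4SET mock. In both lines Fabp4, which encodes a fatty acid carrier, was the most abundant marker. Brown fat's own Ucp1 was at 0.0793 RPKM in LSL-K4M 4OHT and 3.58 in LSL-K4M mock, and at 0.0561 in Mll3/4SET 4OHT and 1.45 in Mll3/4SET mock. The 6 myofibroblast and smooth muscle markers went the other way, with summed levels of 2045 RPKM in LSL-K4M 4OHT against 417 in LSL-K4M mock, and 1061 RPKM in Mll3/4SET 4OHT against 229.5 in Mll3/4SET mock. Their part in the collagen differences was not tested, and in bulk libraries fewer cells of a type and less RNA per cell cannot be told apart. Markers of other collagen-rich cell types were scarce in all 4 libraries. Of 8 chondrocyte markers 1 reached 1 RPKM (Sox9), with summed levels between 5.85 and 8.58 RPKM. The chondrocyte gene Hapln1 had no read in any library, and Acan had none in either mock library. Of 7 endothelial markers 1 reached 1 RPKM (Tek), with summed levels between 1.77 and 5.51 RPKM and no read of Cdh5, Tie1 or Emcn in any library. Between 1 and 2 of 6 osteoblast markers reached that level (4.46 to 7.43 RPKM summed), with Ibsp at 0 reads. Skeletal muscle, macrophage, keratinocyte and Schwann cell lists had at most 2 members at 1 RPKM in any library, and the largest sum was 11.4 RPKM for skeletal muscle in LSL-K4M 4OHT, nearly all from Acta1.

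Collagen transcripts were abundant in every library and were mostly fibrillar. Members took 2.78% of reads in LSL-K4M 4OHT and 2.37% in LSL-K4M mock, and 3.73% in Mll3/4SET 4OHT and 3.66% in Mll3/4SET mock. By level, Col1a1, Col1a2 and Col3a1, which encode the chains of collagens I and III, together made up 74.0% of the summed RPKM of the members in LSL-K4M 4OHT, 72.3% in LSL-K4M mock, 85.7% in Mll3/4SET 4OHT and 79.7% in Mll3/4SET mock. Col1a1 led in both LSL-K4M libraries, and Col3a1 led in both Mll3/4SET libraries. With 2294 RPKM, Col3a1 had the highest level of all names in the Mll3/4SET 4OHT library. It was at rank 4 in Mll3/4SET mock, at rank 19 in LSL-K4M 4OHT and at rank 40 in LSL-K4M mock. The number of members at 1 RPKM or more was 20, 18, 19 and 19 in LSL-K4M 4OHT, LSL-K4M mock, Mll3/4SET 4OHT and Mll3/4SET mock.

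**Figure D1:**
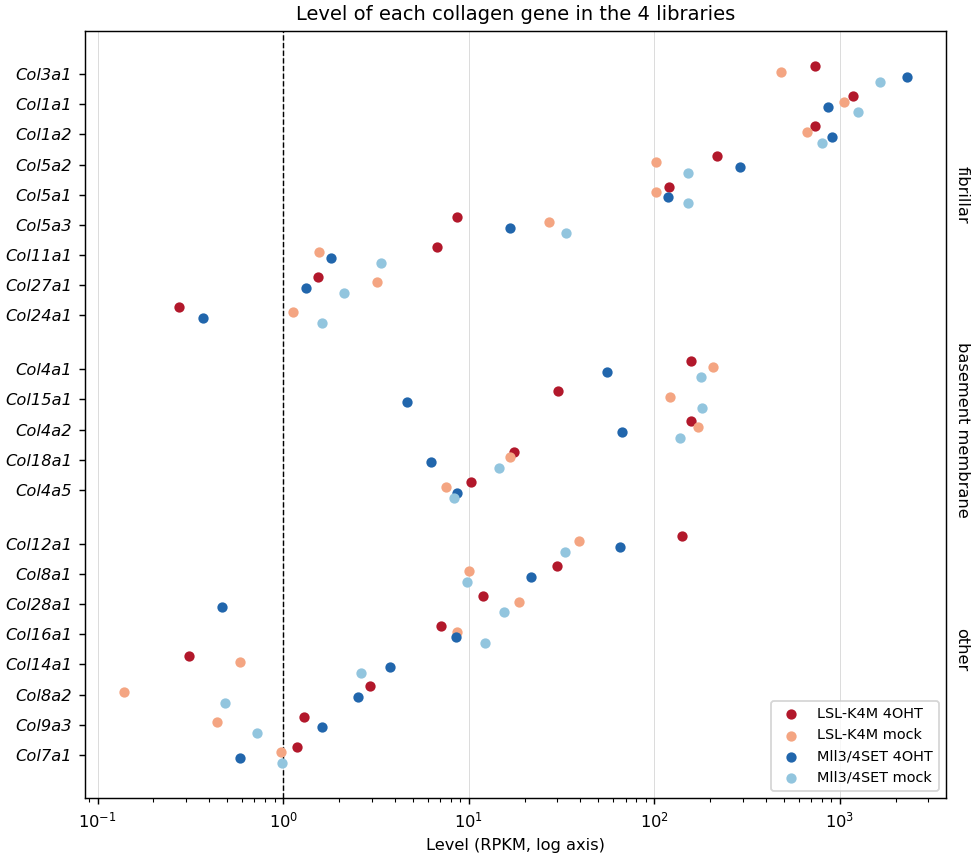
Level of each collagen gene at 1 RPKM or more in at least 1 library, in RPKM on a log axis, with 1 point for each of the 4 libraries and genes grouped by class. The dashed line is at 1 RPKM. The points of Col1a1, Col1a2 and Col3a1 lie between 482 and 2294 RPKM, and those of Col15a1 spread from 4.66 to 179.8 RPKM.

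In LSL-K4M, 5 of 21 measured members were called higher with 4OHT (Col5a2, Col12a1, Col8a1, Col11a1 and Col8a2) and 2 were called lower (Col15a1 and Col5a3). These counts are 23.8% and 9.5% of the measured members, and of all 12179 measured names 5.26% were called higher and 6.19% lower. In Mll3/4SET, 2 of 21 measured members were called higher (Col8a1 and Col8a2) and 5 were called lower (Col4a1, Col15a1, Col4a2, Col28a1 and Col18a1). There the shares were 9.5% and 23.8% of the members, against 5.18% higher and 7.41% lower among all 12184 measured names. Over all names, 641 were called higher and 754 lower in LSL-K4M (483 and 935 with TMM scaling), and 631 higher and 903 lower in Mll3/4SET (450 and 1046 with TMM scaling). Col8a1 and Col8a2 were called higher in both lines and Col15a1 was called lower in both. The median log2 difference of the members was 0.14 in LSL-K4M, close to the 0.10 of all names, and -0.42 in Mll3/4SET, where all names had 0.12. By class, the medians in LSL-K4M were 0.16 for 9 fibrillar, -0.14 for 5 basement membrane and 0.67 for 7 other collagens. In Mll3/4SET they were -0.42 for 9 fibrillar, -1.10 for 5 basement membrane and 0.60 for 7 other collagens.

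**Figure D2:**
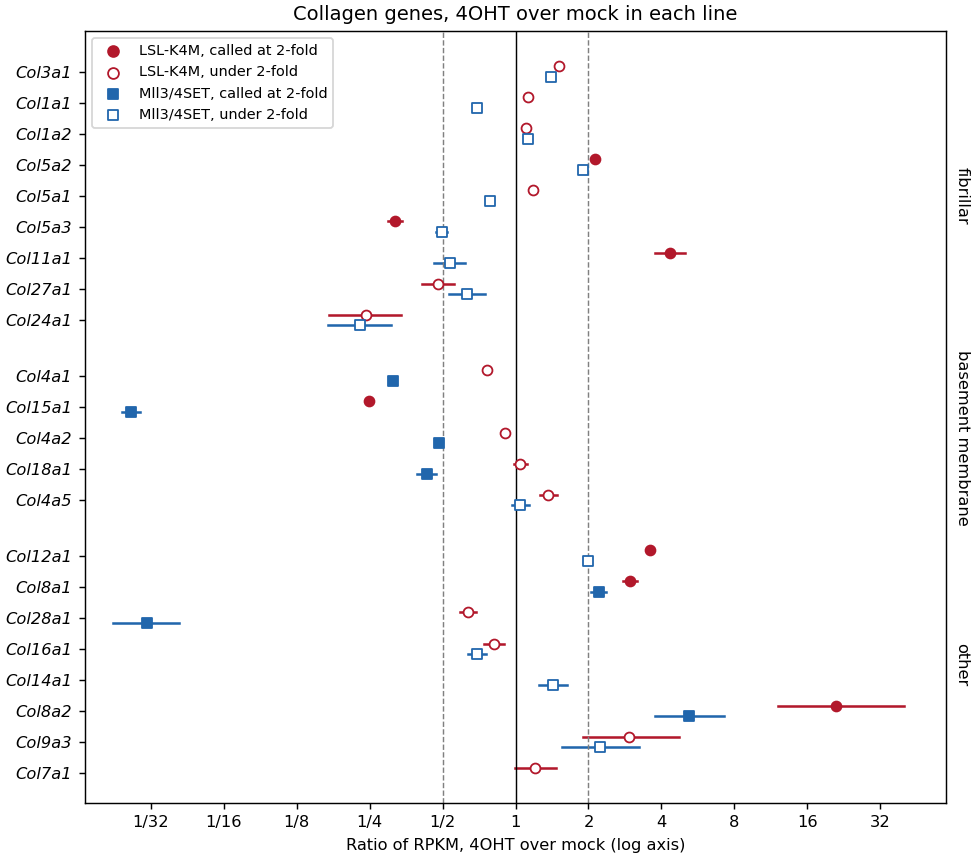
Ratio of RPKM, 4OHT over mock, of each measured collagen gene on a log axis, circles for LSL-K4M and squares for Mll3/4SET, with exact 95% counting intervals as bars. Filled symbols were called at 2-fold on the log2(RPKM + 1) scale and dashed lines mark 2-fold; 4 of the 5 measured basement membrane genes are filled on the left for Mll3/4SET and 1 for LSL-K4M.

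The 3 most abundant fibrillar genes stayed under the 2-fold limit in both lines. Col1a1, the alpha1 chain of collagen I, was at 1173 RPKM in LSL-K4M 4OHT and 1047 in LSL-K4M mock, 1.12-fold higher (1.11 to 1.13). In Mll3/4SET it was at 864 RPKM with 4OHT and 1245 in mock, 1.44-fold lower (1.43 to 1.45). The 4OHT libraries of the 2 lines therefore lay on opposite sides of their mock libraries for this gene. Col1a1 in LSL-K4M lay close to the offset of all names, with log2 differences of 0.16 and, with TMM scaling, 0.03. Its partner chain Col1a2 was at 735 RPKM in LSL-K4M 4OHT and 668 in LSL-K4M mock, 1.10-fold higher (1.09 to 1.11), and at 904 RPKM in Mll3/4SET 4OHT and 802 in Mll3/4SET mock, 1.13-fold higher (1.12 to 1.14). Both of these higher values are about the size of the offset of all names. Col3a1, whose product forms collagen III from 3 identical chains, was at 731 RPKM in LSL-K4M 4OHT and 482 in LSL-K4M mock, 1.52-fold higher (1.5 to 1.53). In Mll3/4SET its level was 2294 RPKM with 4OHT and 1636 in mock, 1.4-fold higher (1.39 to 1.41). Each Mll3/4SET library thus held more Col3a1 than either LSL-K4M library.

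Collagen V genes, whose product seeds and limits the width of collagen I fibrils, split by chain. Col5a2, the alpha2 chain, was at 218 RPKM in LSL-K4M 4OHT and 103 in LSL-K4M mock and was called higher, 2.13-fold (2.09 to 2.17). At 289 RPKM in Mll3/4SET 4OHT and 152 in Mll3/4SET mock it was 1.90-fold higher (1.87 to 1.93) and under the limit. The LSL-K4M call lies near the limit and is lost under median-ratio and TMM scaling (log2 differences of 0.98 and 0.95). In the RefSeq gene order of assembly GRCm38.p6 no protein-coding gene stands between Col3a1 and Col5a2, and both had higher values with 4OHT in both lines. Col5a1, the alpha1 chain, was at 120.4 RPKM in LSL-K4M 4OHT and 102 in LSL-K4M mock, 1.18-fold higher (1.16 to 1.20), but at 119 RPKM in Mll3/4SET 4OHT and 151 in Mll3/4SET mock, 1.27-fold lower (1.25 to 1.30). Col5a3, a chain found in only some collagen V molecules, was at 8.60 RPKM in LSL-K4M 4OHT and 26.99 in LSL-K4M mock and was called lower, 3.14-fold (2.94 to 3.36). Mll3/4SET cells had it at 16.7 RPKM with 4OHT and 33.5 in mock, 2.01-fold lower by RPKM (1.91 to 2.12) with a log2 difference of -0.97, just under the limit. Under median-ratio and TMM scaling it was called lower there too (-1.09 and -1.11). The 3 chains of collagen V thus had 3 patterns, with Col5a3 lower and Col5a2 higher in both lines and Col5a1 on different sides of mock.

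Weakly expressed fibrillar genes differed in direction. Col11a1, best known from cartilage, was at 6.75 RPKM in LSL-K4M 4OHT and 1.56 in LSL-K4M mock (1130 and 245 reads) and was called higher, 4.32-fold (3.76 to 4.99). In Mll3/4SET it was at 1.80 RPKM with 4OHT and 3.36 in mock (284 and 544 reads), 1.87-fold lower (1.61 to 2.16) and under the limit. Col24a1, a minor fibrillar chain, was at 0.274 RPKM in LSL-K4M 4OHT and 1.14 in LSL-K4M mock, and at 0.368 RPKM in Mll3/4SET 4OHT and 1.61 in Mll3/4SET mock. Its ratios were 4.15-fold (2.97 to 5.89) and 4.37-fold (3.27 to 5.94) lower by RPKM, and at these levels it was under the limit on the log2(RPKM + 1) scale and past it with a pseudocount of 0.1. Col27a1, another minor fibrillar chain, was at 1.54 RPKM in LSL-K4M 4OHT and 3.21 in LSL-K4M mock, 2.09-fold lower (1.80 to 2.42), and at 1.34 RPKM in Mll3/4SET 4OHT and 2.12 in Mll3/4SET mock, 1.59-fold lower (1.34 to 1.89). Both were under the limit in both lines. With a pseudocount of 0.1 Col27a1 was past it in LSL-K4M (-1.01) and not in Mll3/4SET (-0.63).

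Basement membrane collagens were lower with 4OHT in Mll3/4SET, where 4 of 5 measured genes were called, while 1 of 5 was called lower in LSL-K4M. Of all measured names, 7.41% were called lower in Mll3/4SET and 6.19% in LSL-K4M. Col4a1 and Col4a2 encode the chains of the collagen IV found in nearly all basement membranes. In Mll3/4SET, Col4a1 was at 55.8 RPKM with 4OHT and 179 in mock, 3.20-fold lower (3.12 to 3.28). Col4a2 was at 67.0 RPKM in Mll3/4SET 4OHT and 138 in Mll3/4SET mock, 2.06-fold lower (2.01 to 2.11). In LSL-K4M the same genes were under the limit. There Col4a1 was at 157 RPKM with 4OHT and 206 in mock, 1.31-fold lower (1.29 to 1.33), and Col4a2 at 157 RPKM with 4OHT and 173 in mock, 1.10-fold lower (1.08 to 1.12). With both scalings tried, the LSL-K4M values of both genes were further below mock. The 2 genes lie head to head, so their promoter sequences are shown side by side, from RefSeq on assembly GRCm38.p6, 250 bases before to 50 after each annotated start. The annotated start sites lie 21 bases apart on opposite strands, and the windows share 78 bases. Each start lies inside the other annotated gene, so the 2 genes overlap there and no gap separates them. Capitals mark CCAAT on either strand, 1 in each window, and neither window holds TATAAA on either strand.
Col4a1, chr8:11312777-11313076, minus strand: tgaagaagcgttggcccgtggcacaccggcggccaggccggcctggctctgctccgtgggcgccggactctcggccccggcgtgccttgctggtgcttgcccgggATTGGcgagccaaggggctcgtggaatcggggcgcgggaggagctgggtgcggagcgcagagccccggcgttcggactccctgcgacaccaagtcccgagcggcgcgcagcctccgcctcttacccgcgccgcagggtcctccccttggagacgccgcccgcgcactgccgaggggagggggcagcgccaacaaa
Col4a2, chr8:11312555-11312854, plus strand: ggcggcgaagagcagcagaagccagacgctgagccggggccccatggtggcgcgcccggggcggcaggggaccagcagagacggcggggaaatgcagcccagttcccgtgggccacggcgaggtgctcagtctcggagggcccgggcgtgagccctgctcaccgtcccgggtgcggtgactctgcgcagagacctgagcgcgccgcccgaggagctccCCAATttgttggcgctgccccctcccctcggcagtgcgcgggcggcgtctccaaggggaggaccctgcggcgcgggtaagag
These windows were rich in G and C (74.0% and 73.7%, against a median of 52.7% over all 32851 windows of the table). CCAAT was found in 12 of 31 windows of the members (38.7%) and in 37.4% of all windows, and TATAAA in 5 of 31 (16.1%) and in 13.6%. A match is a description of the letters and not a site of binding. The 31 windows belong to 29 of the 37 members, among them 17 of the 22 named ones.

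Col15a1, the gene of collagen XV, had the lowest log2 difference of the measured members in both lines. It was at 30.3 RPKM in LSL-K4M 4OHT and 122 in LSL-K4M mock, 4.02-fold lower (3.88 to 4.17). Mll3/4SET cells had it at 4.66 RPKM with 4OHT and 179.8 in mock (537 and 21285 reads), 38.6-fold lower (35.4 to 42.1). In Mll3/4SET mock only Col3a1, Col1a1 and Col1a2 exceeded it, and Col4a1 was level with it. Col18a1, the gene of collagen XVIII and of its fragment endostatin, was at 6.28 RPKM in Mll3/4SET 4OHT and 14.6 in Mll3/4SET mock, 2.32-fold lower (2.12 to 2.54) and called. In LSL-K4M it was at 17.5 RPKM with 4OHT and 16.7 in mock, a ratio of 1.05 (0.981 to 1.11) whose direction flips under both scalings (log2 differences of -0.04 and -0.06). The tables hold 2 rows for Col18a1 that share most reads, and the other row gave 6.07 RPKM in Mll3/4SET 4OHT and 14.6 in Mll3/4SET mock. Col4a5, a collagen IV chain of other basement membranes such as that of the kidney, was at 10.3 RPKM in LSL-K4M 4OHT and 7.55 in LSL-K4M mock, 1.37-fold higher (1.26 to 1.48). In Mll3/4SET it was at 8.69 RPKM with 4OHT and 8.33 in mock, a ratio of 1.04 (0.963 to 1.13) whose direction also flips under both scalings. Col4a5 was thus the only measured basement membrane gene not called lower in Mll3/4SET. Its head-to-head neighbour Col4a6 stayed at 0.235 RPKM or less in all 4 libraries, and Col4a3 and Col4a4, the chains that join Col4a5 in the kidney, at 0.1004 RPKM or less.

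Among the other collagens, Col28a1 was also far lower with 4OHT in Mll3/4SET. It encodes a chain that resembles those of collagen VI and is known from peripheral nerve. Its level was 0.469 RPKM in Mll3/4SET 4OHT and 15.5 in Mll3/4SET mock (43 and 1460 reads), 33.1-fold lower (24.4 to 45.9). In LSL-K4M it was at 12.0 RPKM with 4OHT and 18.7 in mock, 1.57-fold lower (1.45 to 1.69) and under the limit. The summed level of 4 Schwann cell markers was 1.07 RPKM in Mll3/4SET 4OHT and 2.06 in Mll3/4SET mock, and S100b was the highest of them. For Col15a1 and Col28a1, the measured members with the lowest ratios in Mll3/4SET, the start regions are shown from the same RefSeq table. Neither holds CCAAT or TATAAA on either strand, so no base is in capitals.
Col15a1, chr4:47207762-47208061, plus strand: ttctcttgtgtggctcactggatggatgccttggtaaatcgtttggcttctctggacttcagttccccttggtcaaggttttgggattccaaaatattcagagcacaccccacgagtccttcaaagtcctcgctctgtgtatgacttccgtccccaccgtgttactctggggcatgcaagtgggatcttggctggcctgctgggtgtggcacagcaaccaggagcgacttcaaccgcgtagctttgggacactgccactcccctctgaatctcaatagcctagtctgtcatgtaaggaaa
Col28a1, chr6:8192568-8192867, minus strand: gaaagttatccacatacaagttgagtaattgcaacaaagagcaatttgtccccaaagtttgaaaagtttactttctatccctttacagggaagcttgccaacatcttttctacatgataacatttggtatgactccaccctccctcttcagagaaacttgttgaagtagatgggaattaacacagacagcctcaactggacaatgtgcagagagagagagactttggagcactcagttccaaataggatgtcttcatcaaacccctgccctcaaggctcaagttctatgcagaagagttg
Unlike the collagen IV windows, that of Col28a1 was poor in G and C (41.7%) and held no CG, and that of Col15a1 was near the median (52.3%, with 8 CG).

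Collagen VIII, a short-chain collagen that forms a hexagonal lattice in the cornea and in vessel walls, was called higher with 4OHT in both lines through both of its chains. Col8a1 was at 29.99 RPKM in LSL-K4M 4OHT and 10.1 in LSL-K4M mock, 2.97-fold higher (2.78 to 3.18). Mll3/4SET cells had it at 21.7 RPKM with 4OHT and 9.84 in mock, 2.20-fold higher (2.05 to 2.37), a call lost under median-ratio and TMM scaling (0.95 and 0.93). Col8a2 was at 2.93 RPKM in LSL-K4M 4OHT and 0.139 in LSL-K4M mock (292 and 13 reads), 21.1-fold higher (12.1 to 40.0). In Mll3/4SET it was at 2.52 RPKM with 4OHT and 0.487 in mock (237 and 47 reads), 5.18-fold higher (3.77 to 7.24). Both mock libraries held less of either chain than both 4OHT libraries. The genes lie on chromosomes 16 and 4, and their start regions are shown because they were called higher together in both lines. Neither holds CCAAT or TATAAA.
Col8a1, chr16:57754688-57754987, minus strand: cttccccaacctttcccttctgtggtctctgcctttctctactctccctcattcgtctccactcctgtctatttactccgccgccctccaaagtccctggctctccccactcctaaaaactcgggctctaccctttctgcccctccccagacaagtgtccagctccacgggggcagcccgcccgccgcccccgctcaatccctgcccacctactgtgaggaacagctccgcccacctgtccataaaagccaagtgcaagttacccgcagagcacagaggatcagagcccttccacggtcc
Col8a2, chr4:126286544-126286843, plus strand: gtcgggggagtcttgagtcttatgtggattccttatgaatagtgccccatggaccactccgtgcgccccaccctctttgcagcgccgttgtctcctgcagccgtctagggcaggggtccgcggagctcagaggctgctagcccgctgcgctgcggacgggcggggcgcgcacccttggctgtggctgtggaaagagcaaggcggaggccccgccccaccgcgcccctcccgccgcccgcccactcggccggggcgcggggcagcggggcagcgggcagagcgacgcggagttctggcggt
The 2 windows differed in base composition, with 60.3% and 71.7% G and C and 12 and 32 CG.

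The FACIT collagens, which sit on the surface of fibrils rather than forming them, were led by Col12a1. It was at 142 RPKM in LSL-K4M 4OHT and 39.3 in LSL-K4M mock and was called higher, 3.60-fold (3.52 to 3.68). Mll3/4SET cells had it at 65.7 RPKM with 4OHT and 32.9 in mock, 1.99-fold higher (1.94 to 2.05) with a log2 difference of 0.97, just under the limit. Its relative Col14a1 was measured in Mll3/4SET alone, at 3.75 RPKM with 4OHT and 2.63 in mock, 1.43-fold higher (1.25 to 1.63), and was at 0.310 RPKM in LSL-K4M 4OHT and 0.582 in LSL-K4M mock. Col16a1, a FACIT of many tissues, was at 7.05 RPKM in LSL-K4M 4OHT and 8.66 in LSL-K4M mock, 1.23-fold lower (1.12 to 1.35). At 8.50 RPKM in Mll3/4SET 4OHT and 12.3 in Mll3/4SET mock it was 1.44-fold lower (1.33 to 1.57). Col9a3, a chain of the cartilage collagen IX, was at 1.30 RPKM in LSL-K4M 4OHT and 0.440 in LSL-K4M mock, 2.95-fold higher by RPKM (1.89 to 4.74), and at 1.62 RPKM in Mll3/4SET 4OHT and 0.726 in Mll3/4SET mock, 2.23-fold higher (1.56 to 3.24). It was under the limit in both lines and past it in both with a pseudocount of 0.1. Its partner chains were all but absent, Col9a1 with no read in any library and Col9a2 with 7 reads or fewer. Col7a1, which forms the anchoring fibrils of skin, was at 1.18 RPKM in LSL-K4M 4OHT and 0.977 in LSL-K4M mock (a ratio of 1.21, 0.998 to 1.47), and at 0.582 RPKM in Mll3/4SET 4OHT and 0.991 in Mll3/4SET mock.

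The remaining 15 members were under 1 RPKM in all 4 libraries and were left out of the counts and medians above. They were Col2a1 and Col11a2 of the fibrillar class, Col4a3, Col4a4 and Col4a6 of the basement membrane class, and Col9a1, Col9a2, Col10a1, Col13a1, Col17a1, Col19a1, Col20a1, Col22a1, Col23a1 and Col25a1. Cartilage genes were among the lowest, with Col2a1, the main collagen of cartilage, at 13 reads or fewer and Col10a1, a marker of hypertrophic cartilage, at 11 reads or fewer in any library. Col20a1, Col11a2 and Col23a1 came nearest to the minimum, between 0.237 and 0.794 RPKM. Col13a1 had no read in any library.

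Summed by class, the fibrillar level was somewhat higher with 4OHT in LSL-K4M and little different in Mll3/4SET. The basement membrane level was lower in both lines, by more in Mll3/4SET. Fibrillar collagens summed to 2996 RPKM in LSL-K4M 4OHT and 2434 in LSL-K4M mock, 1.23-fold higher, and to 4490 RPKM in Mll3/4SET 4OHT and 4027 in Mll3/4SET mock, 1.11-fold higher. The Mll3/4SET ratio is about the size of the offset of all names. Without Col3a1 the fibrillar sum of Mll3/4SET was 2196 RPKM with 4OHT and 2391 in mock, 1.09-fold lower, so that 1 gene decides its direction. Basement membrane collagens summed to 372 RPKM in LSL-K4M 4OHT and 525 in LSL-K4M mock, 1.41-fold lower, and to 143 RPKM in Mll3/4SET 4OHT and 519.7 in Mll3/4SET mock, 3.64-fold lower. Without Col15a1 these ratios were 1.18-fold and 2.46-fold lower. The other collagens summed to 198 RPKM in LSL-K4M 4OHT and 80.1 in LSL-K4M mock, 2.47-fold higher, and 1.37-fold higher without Col12a1. In Mll3/4SET they summed to 106 RPKM with 4OHT and 76.6 in mock, 1.39-fold higher, and without Col12a1 they were 1.08-fold lower. As a share of the summed level of all members, basement membrane collagens were 10.4% in LSL-K4M 4OHT and 17.3% in LSL-K4M mock, and 3.01% in Mll3/4SET 4OHT and 11.2% in Mll3/4SET mock. The fibrillar share was 84.0% and 80.1% in the LSL-K4M 4OHT and mock libraries, and 94.7% and 87.1% in the Mll3/4SET 4OHT and mock libraries.

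**Figure D3:**
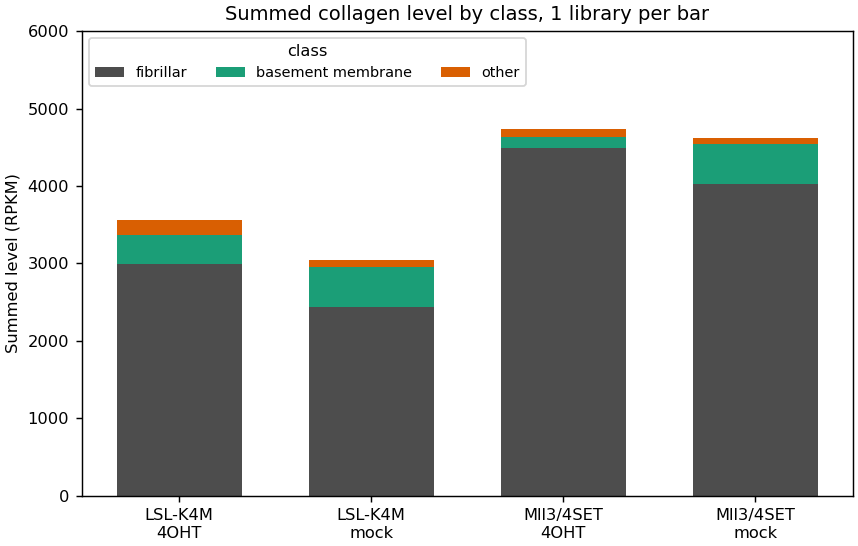
Summed level of the collagen genes in RPKM, stacked by class, with 1 bar for each library. The basement membrane part is 143 RPKM in Mll3/4SET 4OHT and 519.7 in Mll3/4SET mock, and the fibrillar part is the largest in each of the 4 bars.

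Of 5 pairs of chains that share a molecule, 4 differed in ratio between libraries beyond the counting intervals, and Col4a5 over Col4a6 did not. For that pair the ratio was 43.8 (31.5 to 62.8) in LSL-K4M 4OHT, 47.1 (31.2 to 74.6) in LSL-K4M mock, 43.2 (29.9 to 64.8) in Mll3/4SET 4OHT and 47.4 (32.2 to 72.8) in Mll3/4SET mock, with intervals that are wide because Col4a6 had few reads. Collagen I has more alpha1 than alpha2 chains, and the level of Col1a1 over Col1a2 was 1.60 (1.58 to 1.61) in LSL-K4M 4OHT, 1.57 (1.55 to 1.58) in LSL-K4M mock and 1.55 (1.54 to 1.57) in Mll3/4SET mock. In Mll3/4SET 4OHT it was 0.956 (0.947 to 0.964), apart from the other 3. For collagen V, Col5a1 over Col5a2 was 0.552 (0.543 to 0.562) in LSL-K4M 4OHT and 0.994 (0.973 to 1.02) in LSL-K4M mock, and 0.410 (0.404 to 0.417) in Mll3/4SET 4OHT and 0.996 (0.978 to 1.013) in Mll3/4SET mock. The chains were thus at equal level in both mock libraries, and both 4OHT libraries held more of the alpha2 chain. Col4a1 over Col4a2 was 1.00 (0.986 to 1.02) in LSL-K4M 4OHT and 1.19 (1.17 to 1.21) in LSL-K4M mock, and 0.832 (0.807 to 0.857) in Mll3/4SET 4OHT and 1.29 (1.27 to 1.32) in Mll3/4SET mock. Col3a1 over Col1a1, the balance of collagen III to collagen I, was 0.623 (0.618 to 0.629) in LSL-K4M 4OHT and 0.460 (0.456 to 0.465) in LSL-K4M mock, and 2.66 (2.64 to 2.68) in Mll3/4SET 4OHT and 1.31 (1.30 to 1.32) in Mll3/4SET mock. It was higher with 4OHT in both lines and differed more between lines than between treatments. Col8a1 exceeded Col8a2 in every library, by 10.2 (9.08 to 11.6) in LSL-K4M 4OHT and 72.5 (42.2 to 136.6) in LSL-K4M mock, and by 8.59 (7.51 to 9.86) in Mll3/4SET 4OHT and 20.2 (15.1 to 27.6) in Mll3/4SET mock. Ratios within a library do not depend on the scaling between libraries, and the intervals cover counting error only.

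**Figure D4:**
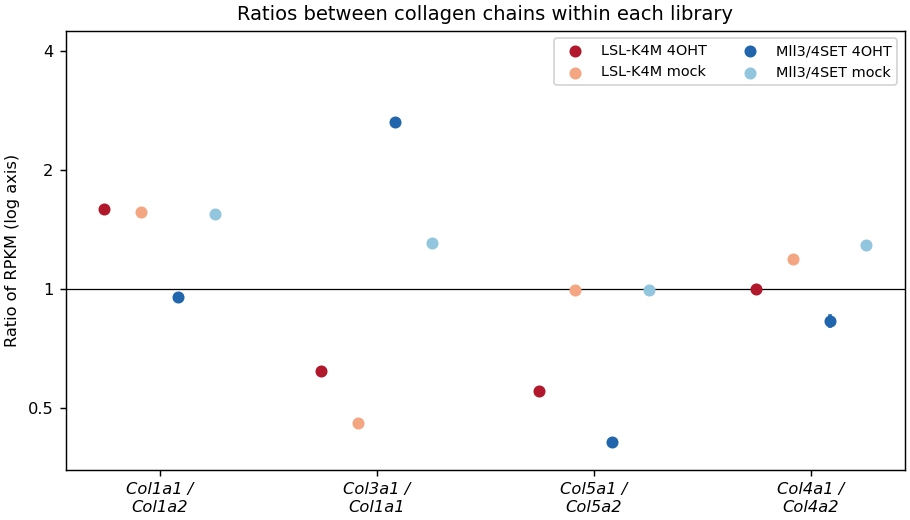
Ratio of the RPKM of 2 collagen chains within each library on a log axis, for 4 pairs of genes, with exact 95% counting intervals as bars that are mostly smaller than the points. Col1a1 over Col1a2 is near 1.6 in 3 libraries and 0.956 in Mll3/4SET 4OHT, and Col5a1 over Col5a2 is near 1 in both mock libraries.

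Set side by side, the log2 differences of the 2 lines were furthest apart for Col15a1, with -1.97 for LSL-K4M and -5.0 for Mll3/4SET, and for Col28a1, with -0.61 and -3.49. Col11a1 followed with 1.60 in LSL-K4M and -0.64 in Mll3/4SET, then Col4a1 with -0.39 and -1.66 and Col18a1 with 0.06 and -1.10. These differences between lines have no test, since each rests on 1 library per line and treatment. Genes with nearly equal values in both lines were Col1a2 (0.14 and 0.17), Col9a3 (0.67 and 0.60), Col3a1 (0.60 and 0.49) and Col5a2 (1.08 and 0.92). The adipocyte markers also differed more in Mll3/4SET than in LSL-K4M, with Fabp4 at 24.3 RPKM in Mll3/4SET 4OHT against 5119 in Mll3/4SET mock, and at 1066 RPKM in LSL-K4M 4OHT against 4099 in LSL-K4M mock, and their part in the differences between lines was not tested. The collagen VI genes showed the same order of lines for 2 chains. Col6a1 was at 147 RPKM in LSL-K4M 4OHT and 291 in LSL-K4M mock (log2 difference -0.97). In Mll3/4SET it was at 70.4 RPKM with 4OHT and 391 in mock (-2.46). Col6a2 was called lower in both lines. It was at 79.9 RPKM in LSL-K4M 4OHT and 167 in LSL-K4M mock (-1.06). In Mll3/4SET it was at 49.7 RPKM with 4OHT and 252 in mock (-2.32). Col6a3 had -0.45 in LSL-K4M and -0.18 in Mll3/4SET.

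Genes that make, process and bind collagen were taken from 4 lists, of which 51 of 52 names were in the tables. Of 44 measured in LSL-K4M, 5 were called higher and 1 lower (median 0.32), and of 42 measured in Mll3/4SET, 5 were called higher and 5 lower (median 0.43), where all names had medians of 0.10 and 0.12. Over all names, 5.26% were called higher and 6.19% lower in the LSL-K4M comparison, and 5.18% higher and 7.41% lower in that of Mll3/4SET. The balance of calls depended on the scaling. In LSL-K4M, 3 list genes were called higher and 3 lower under either scaling, and in Mll3/4SET 2 were called higher, with 5 lower under median-ratio and 6 lower under TMM scaling.

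The first list holds enzymes that hydroxylate and glycosylate new chains, chaperones and export factors, with 21 measured in each line. In LSL-K4M, where 5.26% of all names were called higher and 6.19% lower, 2 were called higher and none lower (median 0.53). In Mll3/4SET, where 5.18% and 7.41% of all names were called, 1 was called higher and 2 lower (median 0.43). The lysyl hydroxylase genes Plod1 and Plod2, whose products prepare lysines for cross-links, were the 2 called lower. Plod2 was at 29.2 RPKM in Mll3/4SET 4OHT and 107 in Mll3/4SET mock, 3.67-fold lower (3.50 to 3.84), and at 23.6 RPKM in LSL-K4M 4OHT and 47.6 in LSL-K4M mock, 2.02-fold lower by RPKM and just under the limit (-0.98). That value passed the limit under median-ratio and TMM scaling (-1.08 and -1.11). Plod1 was at 15.2 RPKM in Mll3/4SET 4OHT and 45.9 in Mll3/4SET mock, 3.01-fold lower (2.81 to 3.23), and 1.79-fold lower (1.68 to 1.91) in LSL-K4M. The third lysyl hydroxylase gene, Plod3, was 1.25-fold (1.20 to 1.31) and 1.42-fold (1.35 to 1.49) higher in LSL-K4M and Mll3/4SET, under the limit. Leprel1 (current symbol P3h2), a prolyl 3-hydroxylase gene, was at 7.96 RPKM in LSL-K4M 4OHT and 2.82 in LSL-K4M mock and was called higher, 2.82-fold (2.32 to 3.45). Calls of this list that lay at the limit and were lost under both scalings were those of Fkbp10, a prolyl isomerase gene, in LSL-K4M (2.04-fold, 1.93 to 2.15) and Leprel4 (current symbol P3h4), a partner of lysyl hydroxylase, in Mll3/4SET (2.14-fold, 1.94 to 2.37). Both had nearly equal values in the other line, just under the limit, with Fkbp10 1.99-fold higher (1.88 to 2.11) in Mll3/4SET and Leprel4 2.02-fold higher (1.83 to 2.23) in LSL-K4M. Serpinh1, the collagen chaperone HSP47, was at 362 RPKM in LSL-K4M 4OHT and 301 in LSL-K4M mock and at 381 RPKM in Mll3/4SET 4OHT and 331 in Mll3/4SET mock, 1.20-fold and 1.15-fold higher. The log2 differences of Serpinh1 in LSL-K4M and Mll3/4SET were 0.27 and 0.20, and 0.14 and 0.05 with TMM scaling. The prolyl 4-hydroxylase gene P4ha1 was 1.03-fold (0.984 to 1.07) lower in LSL-K4M and 1.39-fold (1.33 to 1.45) lower in Mll3/4SET. P4ha2, which encodes another form of that enzyme, was at 58.2 RPKM in LSL-K4M 4OHT and 50.6 in LSL-K4M mock, but at 21.7 RPKM in Mll3/4SET 4OHT and 40.4 in Mll3/4SET mock. The Mll3/4SET value was under the limit (-0.87) and passed it with TMM scaling.

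Genes that trim propeptides and cross-link fibrils had 11 measured members in each line. In LSL-K4M 1 was called higher and none lower (median 0.28), where 5.26% and 6.19% of all names were called. In Mll3/4SET 3 were called higher and 2 lower (median 0.61), where 5.18% and 7.41% of all names were called. Lox, the lysyl oxidase that cross-links collagen and elastin, was at 791 RPKM in LSL-K4M 4OHT and 272 in LSL-K4M mock, 2.91-fold higher (2.87 to 2.96). In Mll3/4SET it was at 465 RPKM with 4OHT and 274 in mock, 1.70-fold higher (1.67 to 1.73). Its relative Loxl1 was at 132 RPKM in Mll3/4SET 4OHT and 52.0 in Mll3/4SET mock and was called higher, 2.54-fold (2.45 to 2.64), with 1.66-fold (1.60 to 1.72) in LSL-K4M. Pcolce, an enhancer of the C-propeptide protease of fibrillar collagens, was at 49.9 RPKM in Mll3/4SET 4OHT and 189 in Mll3/4SET mock and was called lower, 3.80-fold (3.60 to 4.01), with 1.37-fold (1.33 to 1.42) lower in LSL-K4M. Its relative Pcolce2 was called higher in Mll3/4SET, at 4.00 RPKM with 4OHT and 0.818 in mock, 4.89-fold (3.36 to 7.31). In LSL-K4M it was at 1.98 RPKM with 4OHT and 2.16 in mock, a ratio of 0.916 (0.671 to 1.25). Adamts2, the N-propeptide protease of collagens I to III, was called lower in Mll3/4SET, at 15.5 RPKM with 4OHT and 51.6 in mock, 3.33-fold (3.12 to 3.55), and was 1.29-fold lower (1.22 to 1.35) in LSL-K4M. Tll1, a protease of the Bmp1 family, was at 4.10 RPKM in Mll3/4SET 4OHT and 1.53 in Mll3/4SET mock, a call at the limit (log2 difference 1.011) that both scalings removed.

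Of the receptors and uptake genes, 7 were measured in LSL-K4M, with 2 called higher (median 0.30), and 6 in Mll3/4SET, with 1 called higher and 1 lower (median 0.19). Among all measured names, 5.26% were called higher and 6.19% lower in LSL-K4M, and 5.18% higher and 7.41% lower in Mll3/4SET. Itgb1, the beta chain of all collagen-binding integrins, was at 261 RPKM in LSL-K4M 4OHT and 113 in LSL-K4M mock, 2.31-fold higher (2.26 to 2.36), and at 284 RPKM in Mll3/4SET 4OHT and 132 in Mll3/4SET mock, 2.14-fold higher (2.10 to 2.19). Its Mll3/4SET call was lost under both scalings (0.97 and 0.95). Itga11, the alpha chain of the fibroblast receptor for collagen I, was at 1.89 RPKM in Mll3/4SET 4OHT and 7.72 in Mll3/4SET mock and was called lower, 4.09-fold (3.50 to 4.79). In LSL-K4M it was at 8.66 RPKM with 4OHT and 6.82 in mock, 1.27-fold higher (1.15 to 1.4). Mrc2, an endocytic receptor that takes up collagen, was at 71.8 RPKM in LSL-K4M 4OHT and 33.3 in LSL-K4M mock and was called higher, 2.15-fold (2.08 to 2.23), a call lost under both scalings (0.98 and 0.96). It was 1.76-fold higher (1.70 to 1.82) in Mll3/4SET. Ddr2, a receptor kinase for fibrillar collagen, was 1.61-fold (1.56 to 1.66) and 1.68-fold (1.64 to 1.72) higher in LSL-K4M and Mll3/4SET, under the limit. Of 5 proline supply genes, 5 were measured in LSL-K4M (median 0.18) and 4 in Mll3/4SET (median 0.32). Prodh, which breaks proline down, was called lower in LSL-K4M at 0.419 RPKM with 4OHT and 1.97 in mock, and no other gene of that list was called in either line.

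**Figure D5:**
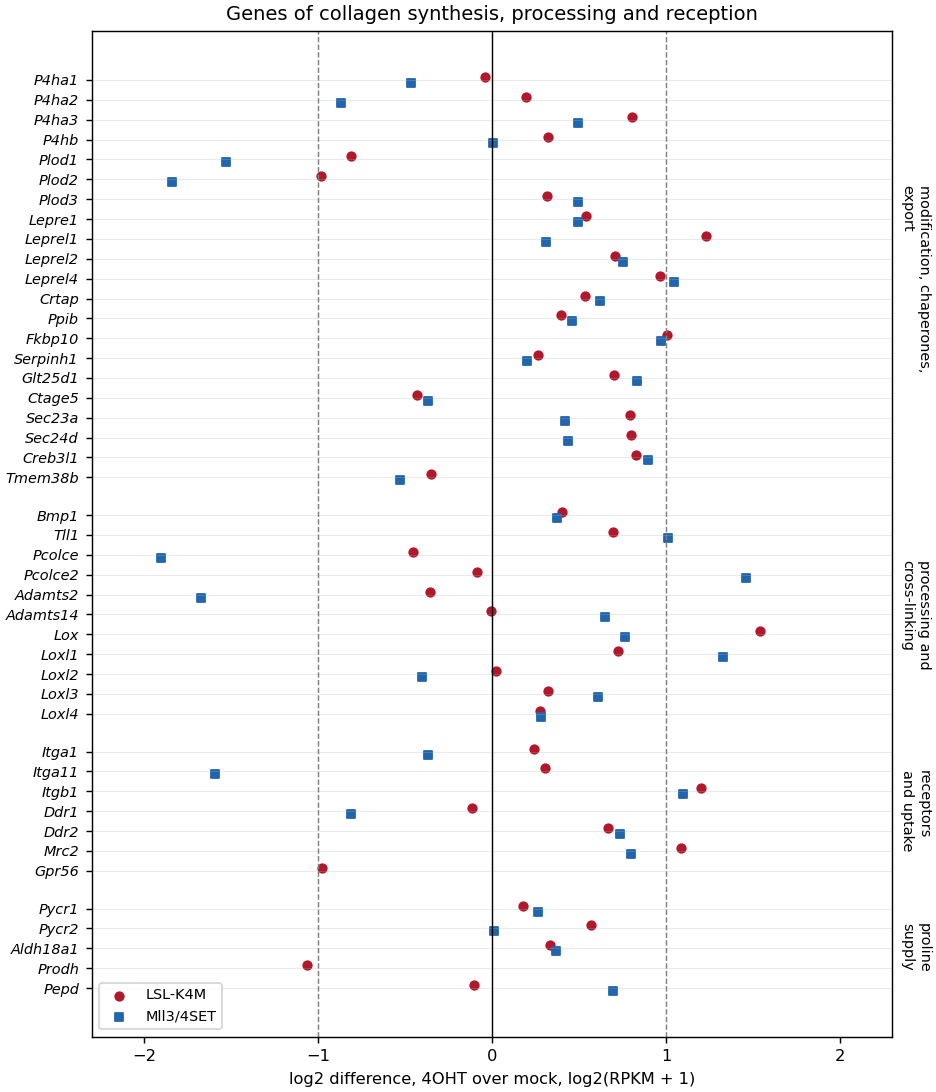
Log2 difference, 4OHT over mock, on the log2(RPKM + 1) scale for each measured gene of collagen modification, processing, reception and proline supply, circles for LSL-K4M and squares for Mll3/4SET; dashed lines mark 2-fold. Plod1, Plod2, Pcolce, Adamts2 and Itga11 lie left of the lower line for Mll3/4SET, and Lox lies at 1.54 for LSL-K4M.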

How the data were processed

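RNA of 4 libraries was used, 1 per line and treatment; the 6 ChIP-seq and input libraries were not analysed here. Per the file headers, the authors' deposited tables hold a read count and an RPKM value per RefSeq transcript, 1 table per line. RPKM were proportional to the counts within a relative tolerance of 1e-06. The submitters' processing notes name the build mm9 and the tool SICER; no source used here names the aligner or counter or says whether strand was used. The deposited authors' ratio of mock to 4OHT and a column of the unit kind other, headed as expressed per the file headers, were not used. Unused per-sample columns numbered 0.

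For each of 22835 names (29082 rows) the row with the highest mean RPKM was taken. Differences were log2((4OHT RPKM + 1)/(mock RPKM + 1)) among names that reached 1 RPKM in at least 1 library of the line, with a size of 2-fold. Depth was 15209607 to 16719658 reads, and intervals are exact conditional binomial at 95% (scipy 1.17.1). Alternatives were a pseudocount of 0.1, no filter or 5 RPKM, median-ratio and TMM scaling (edgeR 4.0.16), the row with most reads, collagen IV alone as basement membrane class, and summed reads. Scripts were tested on simulated data. Promoter sequences come from RefSeq, build GRCm38.p6. Reads shared by isoforms, near-identical copies or antisense genes cannot be assigned.

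Named are all collagens at 1 RPKM or more in a line, list genes at 2-fold in either line, and Serpinh1, P4ha1, P4ha2, Plod2, Lox, Pcolce and Ddr2; Plod3 and the collagen-domain genes were chosen after their values were seen. Members and lists were chosen with earlier results of these data known.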

Additional observations from a re-analysis of the deposited data

Results flagged for a closer look

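Each gene below is given because the counting intervals of its 2 lines lay on opposite sides of equal levels. With 1 library per line and treatment, the difference between the lines was not tested. The values are log2 differences of 4OHT over mock, LSL-K4M minus Mll3/4SET. Col11a1 had the largest, 2.24, with a level of 6.75 RPKM in LSL-K4M 4OHT and 1.56 in LSL-K4M mock against 1.80 in Mll3/4SET 4OHT and 3.36 in Mll3/4SET mock. Col1a1 had 0.69 and Col5a1 had 0.59, both among the more abundant collagens. Their LSL-K4M values were small, 0.16 and 0.24, and 0.03 and 0.11 with TMM scaling. Among the collagen-handling genes, Itga11 had 1.90 and P4ha2 had 1.06, and the Mll3/4SET value of P4ha2 was called lower with TMM scaling alone.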

How the results depend on the processing

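No paired analysis was possible because each group is 1 library, and for the same reason no library could be left out. Both 4OHT libraries carry the doubt about the day, so no count can be given without them. Of 82 values, 2 for each of 41 named genes, no called value changed direction. That outcome was nearly fixed, since a pseudocount or filter cannot reverse a direction and the scalings shifted values by far less than 2-fold. Small values could flip, and those of Col18a1 in LSL-K4M and Col4a5 in Mll3/4SET did under both scalings. With TMM scaling 54 of the 82 values moved by more than 50% of the width of their counting interval, with median-ratio scaling 47 and with a pseudocount of 0.1 16. A scaling shifts the well-expressed genes of a line by nearly the same amount. Whether such a gene counts as moved under a scaling therefore depends mainly on the width of its interval. With that pseudocount, 4 collagens and 3 handling genes were lower in LSL-K4M, and class medians were 1.37 (other, LSL-K4M), -0.53 (fibrillar, Mll3/4SET) and 0.99 (other, Mll3/4SET). Without a filter, medians in LSL-K4M were 0.14 (fibrillar), -0.028 (basement membrane) and 0.026 (other), and in Mll3/4SET -0.35, -0.50 and 0.016, with 0.28 for handling genes. With 5 RPKM, 1 collagen (Col8a1) and 3 handling genes were higher in Mll3/4SET and 0 handling genes lower in LSL-K4M, and medians were 0.24 (fibrillar, LSL-K4M), -0.088 (fibrillar, Mll3/4SET) and 0.25 (other, Mll3/4SET). With either scaling, 3 handling genes were higher and 3 lower in LSL-K4M, and 1 collagen (Col8a2) and 2 handling genes were higher in Mll3/4SET. Median-ratio medians were 0.061 (fibrillar, LSL-K4M), -0.24 (basement membrane, LSL-K4M), -0.50 (fibrillar, Mll3/4SET) and 0.31 (handling, Mll3/4SET). TMM medians were 0.034, -0.27 and 0.19 (fibrillar, basement membrane and handling, LSL-K4M), and -0.51, -1.23, 0.40 and 0.28 (fibrillar, basement membrane, other and handling, Mll3/4SET). With collagen IV alone as the basement membrane class, the median of the other collagens was 0.14 (LSL-K4M) and 0.39 (Mll3/4SET). By reads, the fibrillar share was 78.8% in LSL-K4M 4OHT, 76.6% in LSL-K4M mock, 92.8% in Mll3/4SET 4OHT and 85.2% in Mll3/4SET mock. The row with most reads changed no call. Genes under about 50 reads in a library, among them Col8a2 in mock, had wide counting intervals.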

Other observations

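Collagen helices also occur in proteins whose genes are not named in the ColNaN form. A list of 32 such genes was drawn up after the collagen values were known. It leaves out Adipoq, the gene of adiponectin, which was counted with the adipocyte markers and was called lower in both lines. Adipoq was at 119 RPKM in LSL-K4M 4OHT and 483 in LSL-K4M mock (-2.01). Mll3/4SET cells had it at 3.22 RPKM with 4OHT and 167 in mock (-5.32). The counts and medians that follow are those of the list without Adipoq. Of 13 measured in LSL-K4M, 1 was called higher (C1qtnf3) and none lower (median 0.39), and of 12 measured in Mll3/4SET, 2 were called higher (C1qtnf3 and Cthrc1) and 4 lower (C1qtnf1, C1qtnf5, Scara5 and Emilin1; median 0.25). Over all names 5.26% were called higher and 6.19% lower in the LSL-K4M comparison (median 0.10), and 5.18% higher and 7.41% lower in that of Mll3/4SET (median 0.12). C1qtnf3, a secreted protein of the adiponectin family, was at 3.59 RPKM in LSL-K4M 4OHT and 0.237 in LSL-K4M mock, 15.2-fold higher (8.48 to 29.9), and at 4.40 RPKM in Mll3/4SET 4OHT and 0.535 in Mll3/4SET mock, 8.22-fold higher (5.53 to 12.6). Cthrc1, a secreted protein of activated fibroblasts, was at 9.04 RPKM in Mll3/4SET 4OHT and 2.28 in Mll3/4SET mock, and at 3.70 RPKM in LSL-K4M 4OHT and 3.15 in LSL-K4M mock. Scara5, a ferritin receptor, was at 1.63 RPKM in Mll3/4SET 4OHT and 10.7 in Mll3/4SET mock, 6.54-fold lower (5.45 to 7.90), and at 3.06 RPKM in LSL-K4M 4OHT and 6.86 in LSL-K4M mock.

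The lines also differed in collagens without 4OHT, in tables that were normalised separately. The LSL-K4M mock library held 482 RPKM of Col3a1 and the Mll3/4SET mock library 1636, and Col14a1 at 0.582 and 2.63 RPKM. Col1a2, Col4a5 and Col8a1 were at similar levels, 668 and 802 RPKM, 7.55 and 8.33 RPKM, and 10.1 and 9.84 RPKM.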
